A study of Rattus norvegicus with 6 samples.

Results

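The neurotrophins and their receptors were followed in rat sciatic nerve after repair of a nerve defect with a tubular conduit. The set held 7 genes of the 21028 gene models in the deposited table, each found by its symbol: the ligand genes Bdnf, Ntf3 and Ntf4, the Trk receptor genes Ntrk2 and Ntrk3, the p75 receptor gene Ngfr, and Sort1, which encodes sortilin. The 6 female rats were labelled wild type and were assigned at random to 2 groups of 3. The PLLARS_US group had a PLLARS conduit together with ultrasound, and the PCL group had a PCL conduit and no ultrasound, so the material and the ultrasound differed together and cannot be told apart. The sources used here do not give strain, age or the time from surgery to collection. Poly(A)-enriched RNA was sequenced in 1 library per rat, and the values are FPKM (fragment numbers corrected for model length and sequencing depth), a scale on which levels of different genes can be compared.

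Neurotrophins are secreted as precursors that are cleaved to mature growth factors for sensory, motor and sympathetic neurons. BDNF and NT-4, the products of Bdnf and Ntf4, signal mainly through the receptor kinase TrkB, encoded by Ntrk2, and NT-3, encoded by Ntf3, mainly through TrkC, encoded by Ntrk3. The p75 receptor, encoded by Ngfr, binds all of them with lower affinity and, together with sortilin, binds the uncleaved precursors. In an injured peripheral nerve, Schwann cells that have lost contact with axons are known to make p75 and BDNF. The neuronal transcripts of the Trk receptors lie largely in cell bodies outside the nerve, and Ntrk2 and Ntrk3 also give truncated receptors without a kinase, which a value per gene does not separate from the full-length forms.

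The promoter of Sort1 is shown because Sort1 was the member whose groups did not overlap, and 1 promoter of Bdnf because that gene starts from several promoters that a value per gene adds together. Both are RefSeq windows of 300 bases on the plus strand of GRCr8, each reaching from before a start site to shortly after it, and 4 of the 7 genes had such windows, 11 in all, of which Bdnf had 6. The Sort1 window is chr2:198612245-198612544, with matches to the CCAAT box (CCAAT) and the GC box (GGGCGG) in capitals. The Bdnf window is chr3:116637608-116637907, with its match to the half-site of the cAMP response element (CGTCA) in capitals. It was chosen from the 6 Bdnf windows because it held that match.
Sort1: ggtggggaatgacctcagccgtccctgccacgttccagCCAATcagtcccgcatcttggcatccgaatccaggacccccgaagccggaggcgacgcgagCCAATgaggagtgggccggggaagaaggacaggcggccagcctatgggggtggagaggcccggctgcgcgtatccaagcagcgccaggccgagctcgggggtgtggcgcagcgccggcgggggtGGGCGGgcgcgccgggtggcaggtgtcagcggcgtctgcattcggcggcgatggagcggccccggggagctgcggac
Bdnf: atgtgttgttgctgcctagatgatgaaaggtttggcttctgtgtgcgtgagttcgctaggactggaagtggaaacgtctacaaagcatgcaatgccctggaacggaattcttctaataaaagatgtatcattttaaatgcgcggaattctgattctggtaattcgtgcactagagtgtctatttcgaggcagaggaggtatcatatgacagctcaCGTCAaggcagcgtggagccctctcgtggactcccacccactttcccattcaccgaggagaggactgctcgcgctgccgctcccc
Motifs were searched on both strands. The Sort1 window held 2 matches to the CCAAT box and 1 to the GC box, and of all 33469 windows of this length 37.5% held a CCAAT box and 33.1% a GC box. The Bdnf window shown was the only 1 of the 6 Bdnf windows with a CGTCA match, which 21.2% of all windows held. These matches describe the letters only.

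The libraries held between 15320000 and 16690000 fragments, as the steps between low FPKM values showed, and differed in tissue makeup across the groups. Schwann cell lineage markers were present in every library, Sox10 from 31.6 to 90.7 FPKM and S100b from 120 to 334 FPKM, while Rbfox3, a marker of neuronal cell bodies, did not exceed 0.241 FPKM. Of 9 skeletal muscle markers 7 were in the table, with a summed level of 21.3 to 14298 FPKM in PLLARS_US and of 97.5 to 8780 FPKM in PCL. Their levels ran from a mean log2(FPKM + 1) of 1.40 in PLLARS_US replicate 2 to 10.72 in PLLARS_US replicate 1, and PCL replicate 3 stood next at 9.95. PLLARS_US replicate 1 and PCL replicate 3, 1 library of each group, are called muscle-rich below, although PLLARS_US replicate 3 and PCL replicate 2 also held muscle RNA, at 8.31 and 7.10. PLLARS_US replicate 2 and PCL replicate 1, with the least muscle RNA, were also low in myelin RNA. The mean log2(FPKM + 1) of 6 myelin markers was 4.47 and 4.44 in them, against 7.45 to 7.87 elsewhere. Less RNA per cell and fewer cells of a type cannot be told apart in bulk tissue.

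The comparison of PLLARS_US with PCL asked whether the conduit with ultrasound changed the nerve's supply of neurotrophins or the receptors that read them. None of the 7 genes passed the test. The levels were compared with limma on log2(FPKM + 1), and p-values were adjusted over all genes by the Benjamini-Hochberg method. At an adjusted p under 0.05 this called 0 of 13720 genes (0%), and 960 (7%) lay under 0.05 before adjustment. A limma-voom fit on fragment numbers recovered from the FPKM steps also called 0 of 13709 genes, with 940 (6.86%) under 0.05 before adjustment. With limma array weights, which give less weight to the more variable libraries, 118 genes (0.86%) passed, none of them a member. Sort1 was the 1 member with an unadjusted p under 0.05 and the 1 member whose groups did not overlap. Over all tested genes 14.4% had groups that did not overlap, and 4.33% had every PLLARS_US library above every PCL library. Of the 7 members, 5 reached the mean of 1 FPKM that the test required, and Ntf3 and Ntf4 lay under it and were read from a fit with no such filter.

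The members differed widely in level. Averaged over the 6 libraries, the order was Ngfr at 225 FPKM, Sort1 at 28.9, Bdnf at 3.25, Ntrk2 at 2.71, Ntrk3 at 2.05, Ntf3 at 0.544 and Ntf4 at 0.336 FPKM. Sort1 lay above Bdnf, and Ntrk3 above Ntf3, in 6 of 6 libraries. Ngfr lay above Sort1, and Ntf3 above Ntf4, in 5 of 6, the exceptions being PCL replicate 3 and PLLARS_US replicate 1. The 3 genes in the middle could not be ordered: Bdnf lay above Ntrk2 in 3 of 6 libraries and Ntrk2 above Ntrk3 in 4 of 6.

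**Figure D1:**
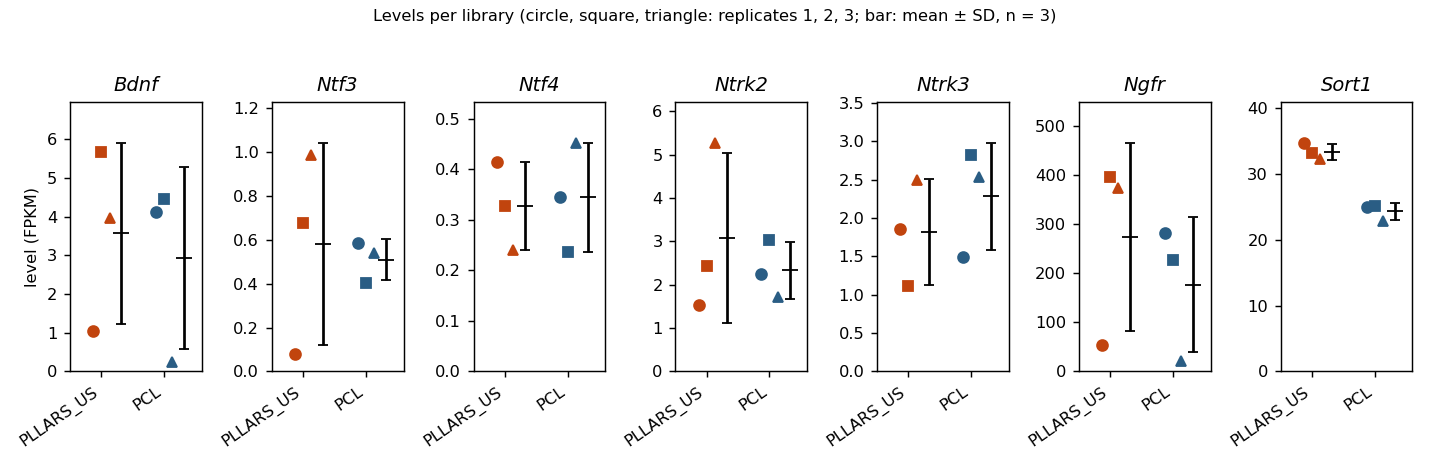
FPKM of the 7 genes in each library, with PLLARS_US libraries in orange and PCL libraries in blue; circles, squares and triangles are replicates 1, 2 and 3, and bars are the mean ± SD of 3 libraries. Each panel has its own linear axis from 0. The Sort1 libraries of PLLARS_US sit between 32.2 and 34.7 FPKM, above all PCL libraries, and in the other 6 panels the groups overlap.

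Sort1, at chr2:211078334-211156312 (plus strand, ENSRNOG00000031814; positions are as deposited, with a genome build that the sources used here do not settle), encodes sortilin, a sorting receptor of the Golgi and endosomes that carries neurotrophin precursors and serves as a partner of p75 at the cell surface. Its level was 34.7, 33.1 and 32.2 FPKM in PLLARS_US replicates 1 to 3, against 25.0, 25.2 and 22.9 FPKM in PCL replicates 1 to 3. The lowest PLLARS_US library thus lay above the highest PCL library, and the libraries of each group lay close together although they differed widely in muscle RNA. The means were 33.4 ± 1.26 FPKM in PLLARS_US and 24.4 ± 1.29 FPKM in PCL (SD, n = 3 each), a ratio of 1.37. The log2 difference was 0.44 (SE 0.11, 95% interval 0.18 to 0.70), with an unadjusted limma p of 0.00624 and an adjusted p of 0.496, so the gene did not pass over all genes. Of the tested genes 1.20% had a smaller p and 6.68% a higher log2 difference. An exact two-sided permutation test of 3 against 3 libraries gave p = 0.1, the smallest it can give. Behind these values stood 3801, 3586 and 3372 fragments in PLLARS_US and 2564, 2682 and 2554 in PCL, and no exact Poisson interval of a PLLARS_US library, from 31.2 FPKM upward, reached those of PCL, which ended at 26.2 FPKM. Without the 2 muscle-rich libraries the log2 difference was 0.37, with an unadjusted limma p of 0.00856 and an adjusted p of 0.271. In that fit 1867 of 13720 genes lay under 0.05 before adjustment. Less the mean log2(FPKM + 1) of the Schwann lineage markers, the Sort1 level was -0.27, -1.44 and -1.59 in PLLARS_US replicates 1 to 3. In PCL replicates 1 to 3 it was -1.32, -1.61 and -0.93, so the groups overlapped on that scale.

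Ngfr, at chr10:83389847-83408061 (minus strand, ENSRNOG00000005392), was the most abundant member in 5 libraries and the one that varied most in absolute terms. It stood at 53.1, 396 and 373 FPKM in PLLARS_US replicates 1 to 3, against 282, 227 and 21.3 FPKM in PCL replicates 1 to 3. Both muscle-rich libraries were low, and the groups overlapped through them alone: in the other 4 libraries both PLLARS_US values lay above both PCL values. How many of all tested genes had that order in these 4 libraries was not counted. The means were 274 ± 192 FPKM in PLLARS_US and 177 ± 137 FPKM in PCL (SD, n = 3 each), with a log2 difference of 0.83 (SE 1.22, 95% interval -2.15 to 3.8) and a limma adjusted p of 0.954. The exact permutation p was 0.5. Without the 2 muscle-rich libraries the log2 difference was 0.60, with an unadjusted limma p of 0.0108 and an adjusted p of 0.277. In that fit 1867 of 13720 genes lay under 0.05 before adjustment, against 960 with all 6 libraries, and 0 passed. Without PCL replicate 3 alone it was -0.34, and without PLLARS_US replicate 1 alone it was 1.77, so each of these libraries set the size of the difference and PCL replicate 3 set its sign.

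Schwann cell markers moved with Ngfr, but over a narrower range. The mean log2(FPKM + 1) of the 5 Schwann lineage markers was 5.43, 6.53 and 6.65 in PLLARS_US replicates 1 to 3 and 6.02, 6.32 and 5.51 in PCL replicates 1 to 3, and their summed level was 274 to 642 FPKM in PLLARS_US and 321 to 471 FPKM in PCL. The level of Ngfr less that mean was 0.32, 2.1 and 1.9 in PLLARS_US and 2.12, 1.51 and -1.03 in PCL. The part of Schwann cell content and of muscle RNA in the Ngfr values was not tested. The repair Schwann cell markers stood at 1.89, 3.45 and 3.29 in PLLARS_US and at 3.00, 3.13 and 1.89 in PCL, again lowest in the 2 muscle-rich libraries, and of its 6 markers Olig1 was listed at 0 in PLLARS_US replicate 1. Gdnf, a growth factor gene of repair Schwann cells, had 1.40, 12.2 and 9.68 FPKM in PLLARS_US and 9.51, 11.9 and 0.171 FPKM in PCL, the same libraries being low.

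**Figure D2:**
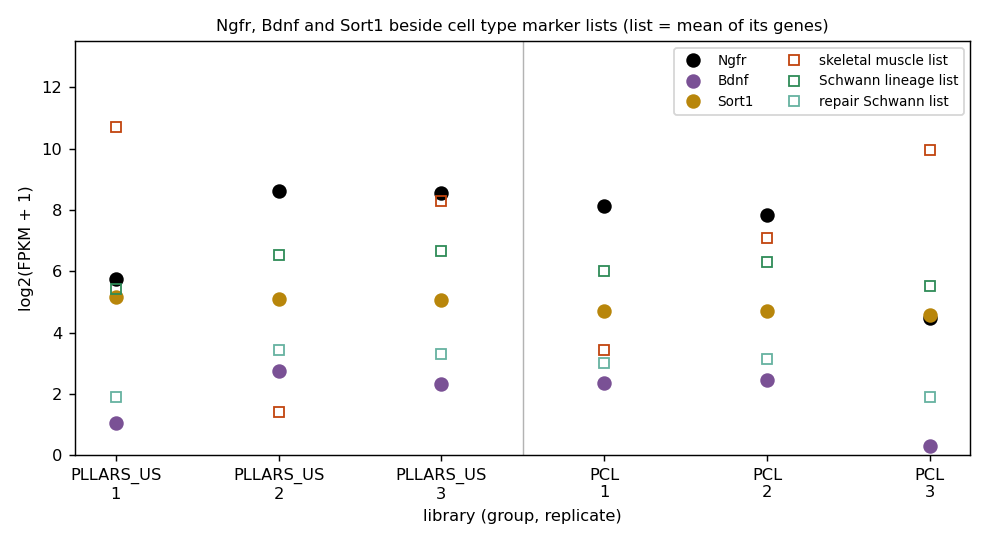
Levels of Ngfr, Bdnf and Sort1 (filled circles) and the mean levels of 3 marker lists (open squares) in each library on log2(FPKM + 1). The skeletal muscle list is highest in PLLARS_US replicate 1 (10.72) and PCL replicate 3 (9.95), where Ngfr and Bdnf are lowest, and the Sort1 points stay within a narrow band in all 6 libraries.

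The neurotrophin transcripts themselves were scarce, and most of their FPKM came from Bdnf. Bdnf, at chr3:100768637-100819210 (plus strand, ENSRNOG00000047466), had 1.06, 5.68 and 3.96 FPKM in PLLARS_US replicates 1 to 3, against 4.12, 4.47 and 0.237 FPKM in PCL replicates 1 to 3. It was lowest in the same 2 muscle-rich libraries as Ngfr, and the groups overlapped. These values rested on 105, 557 and 376 fragments in PLLARS_US and on 383, 431 and 24 fragments in PCL, and the 24 fragments of PCL replicate 3 carry a 95% exact Poisson interval of 0.152 to 0.353 FPKM. The log2 difference was 0.33 (SE 0.72, 95% interval -1.41 to 2.07) with a limma adjusted p of 0.973. The size depended on the setting, at 0.69 with a pseudocount of 0.1, 0.86 by voom, 0.085 with array weights and 0.12 without the 2 muscle-rich libraries. It was -0.37 without PCL replicate 3 and -0.03 without PLLARS_US replicate 2, so its direction rested on single libraries. Less the repair Schwann cell mean, the Bdnf level was -0.84, -0.71 and -0.98 in PLLARS_US and -0.64, -0.68 and -1.58 in PCL on the log2 scale, and the groups overlapped on that scale too.

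Ntf3 is located at chr4:158636884-158705886 (minus strand, ENSRNOG00000019716). It had 0.0784, 0.674 and 0.984 FPKM in PLLARS_US replicates 1 to 3, against 0.586, 0.403 and 0.538 FPKM in PCL replicates 1 to 3. Both the lowest and the 2 highest values were in PLLARS_US, around a tight PCL group. The fragments were 2, 17 and 24 in PLLARS_US and 14, 10 and 14 in PCL, and the 2 fragments of PLLARS_US replicate 1 allow 0.0095 to 0.283 FPKM by the exact Poisson interval. That interval lay below those of PLLARS_US replicates 2 and 3, which began at 0.393 and 0.631 FPKM, so libraries of this group differed beyond counting error. It overlapped the interval of PCL replicate 2, which began at 0.193 FPKM. The log2 difference was 0.02 (SE 0.23, 95% interval -0.56 to 0.60), and no difference between the groups was detectable with this spread and depth.

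Ntf4 is located at chr1:101405314-101408145 (plus strand, ENSRNOG00000020783) and was the least abundant member. Its level was 0.415, 0.326 and 0.241 FPKM in PLLARS_US replicates 1 to 3, against 0.345, 0.237 and 0.452 FPKM in PCL replicates 1 to 3. The values came from 9, 7 and 5 fragments in PLLARS_US and from 7, 5 and 10 in PCL. Every pair of these libraries had overlapping exact Poisson intervals, with a lowest bound of 0.077 and a highest of 0.831 FPKM, so differences among them were not detectable at this depth. The log2 difference was -0.02 (SE 0.10).

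The makeup of the ligand transcripts differed between libraries. Bdnf gave 68.2%, 85.0% and 76.4% of the summed ligand FPKM in PLLARS_US replicates 1 to 3, and 81.6%, 87.5% and 19.3% in PCL replicates 1 to 3. Ntf4 gave 26.7%, 4.89% and 4.65% in PLLARS_US and 6.82%, 4.64% and 36.8% in PCL. Ntf3 gave 5.06%, 10.1% and 19.0% in PLLARS_US and 11.6%, 7.90% and 43.9% in PCL. In PLLARS_US replicate 1 Bdnf was the main ligand transcript, its exact Poisson interval starting at 0.865 FPKM, above those of Ntf4 and Ntf3, which ended at 0.787 and 0.283. In PCL replicate 3 the 3 ligands together had 1.23 FPKM, from 24 fragments of Bdnf, 14 of Ntf3 and 10 of Ntf4. Their exact Poisson intervals there overlapped, at 0.152 to 0.353, 0.294 to 0.903 and 0.217 to 0.831 FPKM. No main ligand transcript could therefore be named in that library. The summed ligand level was 1.55, 6.68 and 5.19 FPKM in PLLARS_US and 5.05, 5.11 and 1.23 FPKM in PCL, below the level of Sort1 in every library.

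The Trk receptor genes were expressed at a few FPKM and did not separate the groups. Ntrk2, at chr17:5933729-6244676 (minus strand, ENSRNOG00000018839), had 1.53, 2.43 and 5.27 FPKM in PLLARS_US replicates 1 to 3, against 2.25, 3.04 and 1.73 FPKM in PCL replicates 1 to 3. The highest and the lowest library were both in PLLARS_US. The fragments were 268, 420 and 881 in PLLARS_US and 368, 516 and 308 in PCL, so the value of PLLARS_US replicate 3 stood apart from the others by more than counting error, with an exact Poisson interval of 4.93 to 5.63 FPKM. The log2 difference was 0.20 (SE 0.37, 95% interval -0.70 to 1.10) with a limma adjusted p of 0.959, and it was -0.16 without PLLARS_US replicate 3.

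Ntrk3, at chr1:139890560-140262503 (minus strand, ENSRNOG00000018674), had 1.86, 1.11 and 2.49 FPKM in PLLARS_US replicates 1 to 3, against 1.5, 2.82 and 2.53 FPKM in PCL replicates 1 to 3. The groups overlapped, and unlike Ngfr and Bdnf the gene was not low in the muscle-rich libraries: its lowest value was in PLLARS_US replicate 2, the library with the least muscle RNA. That library was also low in myelin RNA, and the part of either in the Ntrk3 values was not tested. The log2 difference was -0.22 (SE 0.28, 95% interval -0.91 to 0.46) with a limma adjusted p of 0.942. Ntrk2 over Ntrk3 was 0.824, 2.18 and 2.12 in PLLARS_US and 1.5, 1.08 and 0.683 in PCL, with ratios below 1 in the 2 muscle-rich libraries. Ngfr exceeded the sum of Ntrk2 and Ntrk3 by factors of 15.6, 112 and 48.1 in PLLARS_US and of 75.2, 38.7 and 5.0 in PCL.

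**Figure D3:**
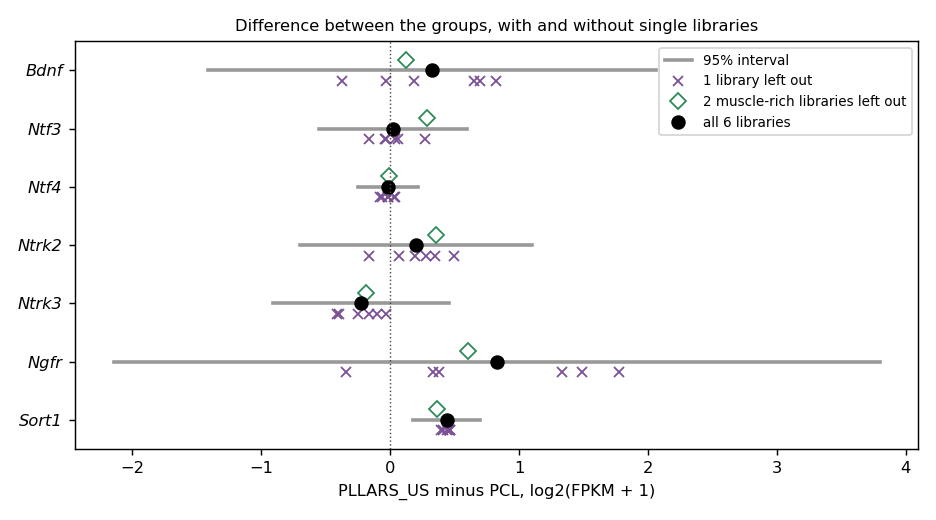
Differences between PLLARS_US and PCL on log2(FPKM + 1) for the 7 genes. Black points are from all 6 libraries with their 95% limma interval in grey, crosses leave out 1 library each, and open diamonds leave out both muscle-rich libraries. The Sort1 crosses lie between 0.40 and 0.46, and those of Ngfr between -0.34 and 1.77.

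The genes whose library pattern was most like each member were sought among 9355 genes with a mean of at least 5 FPKM (9354 where the member was itself among them), by the root mean square difference between log2(FPKM + 1) values centred on each gene's mean over the 6 libraries. For Sort1 the nearest was Cited2, a transcriptional coregulator, at 0.044, with 89.2, 86.7 and 78.8 FPKM in PLLARS_US and 66.4, 61.8 and 59.0 FPKM in PCL. Next were Dync1h1, the heavy chain of the dynein motor, at 0.061 and Snrnp200, a spliceosome helicase, at 0.064, where the median gene searched stood at 0.344. For Ngfr the nearest was Sema3e, a secreted guidance protein gene, at 0.182, with 3.35, 36.0 and 31.2 FPKM in PLLARS_US and 24.0, 22.2 and 0.514 FPKM in PCL. Kcng1, a potassium channel subunit gene, followed at 0.232 and Rgs16, a regulator of G protein signalling, at 0.239, against a median of 1.53.

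For Bdnf the nearest was Myrf, a transcription factor gene known from myelination in the central nervous system, at 0.116, with 2.60, 10.3 and 7.04 FPKM in PLLARS_US and 8.89, 7.08 and 1.04 FPKM in PCL. The tetraspanin gene Tspan7 followed at 0.138 and the aggrecan-cleaving protease gene Adamts4 at 0.143, against a median of 0.853. For Ntrk2 the nearest were Hspa2, a heat shock protein gene, at 0.066, Gsta6 at 0.094 and the lipid phosphatase gene Plpp3 at 0.102, each highest in PLLARS_US replicate 3. For Ntrk3 they were Cab39l at 0.081, Hnrnpc at 0.088 and Dok4 at 0.10, each lowest in PLLARS_US replicate 2. These likenesses rest on 6 libraries that share their tissue makeup and are a description.

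Genes that act on precursors or downstream of the receptors were read from 5 pathway lists, in which 0 genes passed with limma over all genes; 43% of all tested genes had a log2 difference above 0. Of the list of precursor processing and sorting genes 12 of 16 were tested, with 6 higher, 6 lower and a median log2 difference of 0.0044, against -0.04 over all tested genes. Single libraries set that median, which was -0.41 without PCL replicate 3 and 0.19 without PCL replicate 2. In this list 4 genes had an unadjusted p under 0.05, all lower in PLLARS_US, where 5.01% of all tested genes were lower at that level. Mmp3, a matrix metalloproteinase that can cleave neurotrophin precursors outside the cell, had 7.62, 10.1 and 1.20 FPKM in PLLARS_US, against 24.1, 19.0 and 18.8 FPKM in PCL, a log2 difference of -1.85 (SE 0.60). Mmp7, a further extracellular protease with that activity, had 1.59, 0.500 and 0.288 FPKM in PLLARS_US and 7.34, 1.53 and 23.4 FPKM in PCL, with overlapping groups.

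The intracellular convertase gene Pcsk7 had 11.9, 14.4 and 14.6 FPKM in PLLARS_US and 17.5, 18.2 and 17.7 FPKM in PCL, without overlap. Furin, named after its values were seen and the main convertase of such precursors in the secretory pathway, had 42.1, 59.7 and 47.6 FPKM in PLLARS_US and 61.4, 73.4 and 65.3 FPKM in PCL, a log2 difference of -0.43 (SE 0.17) with a limma adjusted p of 0.692. Its groups did not overlap, as in 3 of the 12 tested genes of this list, all of them lower in PLLARS_US, where 10% of all tested genes did so.

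The Trk adaptor and effector list had 23 of 25 genes tested, with 6 higher, 17 lower and a median of -0.11. Pik3r1, the regulatory subunit of phosphoinositide 3-kinase, was the 1 gene of this list higher at an unadjusted p under 0.05, a level that 1.99% of all tested genes reached in that direction. It had 31.5, 35.4 and 43.1 FPKM in PLLARS_US and 23.1, 28.3 and 17.8 FPKM in PCL, without overlap, a log2 difference of 0.66 (SE 0.21) with a limma adjusted p of 0.588. The adaptor gene Shc2 had 7.08, 13.8 and 13 FPKM in PLLARS_US and 15.4, 17.2 and 16.1 FPKM in PCL, and the adaptor gene Sh2b3 had 22.0, 27.3 and 27.6 against 27.9, 31.2 and 37.6 FPKM. Pik3r1 was the 1 gene of the 23 with every PLLARS_US library above every PCL library, as in 4.33% of all tested genes. In 4 genes, Shc2 and Sh2b3 among them, every PLLARS_US library lay below every PCL library, as in 10% of all tested genes.

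The list of p75 partners and effectors had 13 of 14 genes tested, with 4 higher, 9 lower, a median of -0.12 and no gene at an unadjusted p under 0.05. Its smallest p was that of Lingo1, a coreceptor of p75 in signalling that restrains axon growth, with 2.76, 1.31 and 1.33 FPKM in PLLARS_US and 2.04, 6.75 and 11 FPKM in PCL (limma adjusted p 0.717). The 7 genes of p75 shedding and gamma-secretase were all tested, with 3 higher, 4 lower and a median of -0.02, and none had an unadjusted p under 0.05. In 1 of the 7, Aph1a, every PLLARS_US library lay below every PCL library, as in 10% of all tested genes. It had 51.3, 56.0 and 54.1 FPKM in PLLARS_US and 56.2, 61.7 and 68.9 FPKM in PCL.

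The genes induced by ERK, the kinase downstream of Trk and many other receptors, had 12 of 13 tested, with 1 higher, 11 lower and a median of -0.23. Dusp4, a phosphatase that limits ERK signalling, had 4.66, 3.61 and 3.41 FPKM in PLLARS_US and 5.14, 6.72 and 8.48 FPKM in PCL, a log2 difference of -0.66 (SE 0.21) with an unadjusted p of 0.0204 and a limma adjusted p of 0.597. Ier2 had 45.5, 45.0 and 37.5 FPKM in PLLARS_US and 53.0, 56.7 and 48.1 FPKM in PCL. Dusp4 was the 1 gene of the 12 lower at an unadjusted p under 0.05, against 5.01% of all tested genes. Dusp4 and Ier2 were the 2 genes of the 12 whose groups did not overlap, both lower in PLLARS_US, where 10% of all tested genes did so.

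**Figure D4:**
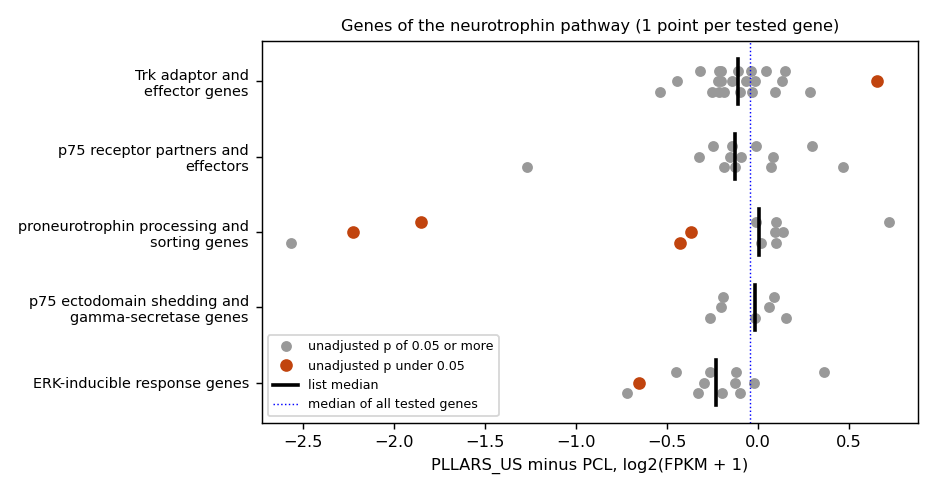
Difference between PLLARS_US and PCL on log2(FPKM + 1) for each tested gene of the 5 pathway lists. Orange points have an unadjusted limma p under 0.05, black bars are list medians, and the dotted line is the median of all tested genes (-0.04). The processing list holds 4 orange points, all below 0.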

How the data were processed

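The authors deposited 1 FPKM value per gene model and library, unpooled, in a workbook named for that unit. The submitters' processing notes name StringTie 1.3.3b, HISAT2 2.1.0, DESeq 1.28.0 and FastQC 0.11.5 without roles, and a human build, so positions are given as deposited. A second sheet repeated the same values in 21028 rows and was not used. Strand is not stated, and no other gene model of the table overlapped the 7 members.

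For 13709 of 13720 tested genes (99.9%), 1 model length made the FPKM values of all 6 libraries whole fragments within 0.03, given depths from 446 small single-exon models. The shortest such length gave the fragments printed here. Exact Poisson intervals of 95% cover counting error only.

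The test was limma (version 3.58.1, R 4.3.3) with a mean-variance trend on log2(FPKM + 1). Group was the sole covariate, genes averaging under 1 FPKM were left out, and p-values were adjusted by Benjamini-Hochberg. Folds on this scale understate changes of low genes. The fit was tested on simulated data. Alternatives covered the pseudocount, filter, scaling, array weights, a replicate block and left-out libraries; limma-voom on recovered fragments was added after seeing the data. From each pathway list the 3 genes with the smallest p could be named, and not all of them are named here. For each member above the filter the 3 genes of most similar pattern were named, and clone and LOC names were passed over. The members and lists were chosen with earlier results of these data known. Further genes of the family are not reported here.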

Additional observations from a re-analysis of the deposited data

How the results depend on the processing

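Sort1 kept its direction in all 15 alternatives, with log2 differences from 0.37 to 0.50, an unadjusted p under 0.05 in each and adjusted p from 0.0728 to 1.00. These alternatives reuse the same libraries. Genes with an unadjusted p under 0.05 numbered 960 in the main fit, 543 with the replicate block, 1867 without the 2 muscle-rich libraries and 2827 with array weights. Ntrk3 was lower in PLLARS_US in all 14 of its alternatives. With 1 library left out, log2 differences ran from -0.37 to 0.82 for Bdnf, -0.17 to 0.27 for Ntf3, -0.0759 to 0.0396 for Ntf4, -0.34 to 1.77 for Ngfr and -0.16 to 0.49 for Ntrk2. The reversed values were those of Bdnf (-0.37 without PCL replicate 3, -0.03 without PLLARS_US replicate 2), Ngfr (-0.34 without PCL replicate 3), Ntrk2 (-0.16 without PLLARS_US replicate 3), Ntf3 (-0.17, -0.04 and -0.03 without PLLARS_US replicate 3, PLLARS_US replicate 2 and PCL replicate 2) and Ntf4 (0.03 and 0.0396 without PLLARS_US replicate 3 and PCL replicate 3). Ntf3 was also reversed with a pseudocount of 0.1 (-0.19) and by voom (-0.34), and Ntf4 under quantile normalization (0.0571) and array weights (0.0141). The cause was not tested. With array weights 118 genes had an adjusted p under 0.05 (0.86% of those tested), none of them a member, and leaving out 1 library gave 0 to 3 genes. The processing list median was -0.21 with array weights and ran from -0.41 to 0.19 with 1 library left out. With the replicate number as a block 0 genes passed and Sort1 had a limma adjusted p of 1.00. Deviations of same-numbered libraries from their group means had correlations of -0.50, 0.15 and -0.32 across genes. These deviations include tissue makeup, so they cannot show whether same-numbered libraries shared a surgery day or batch, which was not tested. Ntf3 and Ntf4 rest on 2 to 24 fragments per library, which limits any statement on them.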

Other observations

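Other genes of the pathway lists, chosen here after their values were seen, varied across libraries much as Ngfr did. Sorcs2, a relative of sortilin that also pairs with p75, had 15.0, 56.6 and 46.2 FPKM in PLLARS_US replicates 1 to 3 and 56.0, 47.2 and 14.2 FPKM in PCL replicates 1 to 3. Maged1, which binds the intracellular part of p75, had 23.4, 56.8 and 55.3 FPKM in PLLARS_US and 56.0, 50.6 and 21.6 FPKM in PCL. Plat, the tissue plasminogen activator gene, had 54.6, 158 and 121 FPKM in PLLARS_US and 123, 138 and 50.3 FPKM in PCL. All 3 were lowest in the 2 muscle-rich libraries, 1 of each group, and their log2 differences between the groups were 0.02, 0.08 and 0.10. Sorcs1, a further relative of sortilin, ran the other way, with 6.87, 1.6 and 8.29 FPKM in PLLARS_US and 1.67, 5.89 and 7.51 FPKM in PCL. It was lowest in PLLARS_US replicate 2 and PCL replicate 1, the 2 libraries with the least muscle RNA and the least myelin RNA.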
